A study of Rattus norvegicus with 8 samples.

Results

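The enzymes described here build serine, proline, asparagine, alanine and cysteine, or pass the carbon of serine on to folate. They are Asns, Psat1, Phgdh, Psph, Shmt2, Mthfd2, Pycr1, Aldh18a1, Gpt2 and Cth, and they were chosen by gene name from the 5 deposited tables of differentially expressed genes. Of these 10 genes 7 had an entry in at least 1 table, out of 9025 genes listed in any of them, and 6 had counts in all 8 libraries. Psat1 had values in 6 libraries, with no entry for ischemia DMSO. Each comparison lists only genes with an unadjusted p under 0.05, and no comparison that holds ischemia DMSO listed it. Phgdh, Shmt2 and Cth had no entry in any comparison and were not analysed here.

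The cells were neonatal rat ventricular cardiomyocytes, taken as a primary culture from the heart ventricles of newborn Sprague Dawley rats. They were kept for 24 h under 4 conditions, with 2 RNA libraries each. The groups were ischemia with 10 µM eugenol (ischemia eugenol), ischemia with the solvent DMSO (ischemia DMSO), normoxia with 10 µM eugenol (normoxia eugenol) and normoxia with DMSO (normoxia DMSO). The ischemic condition was 1% oxygen with 5% CO2, and eugenol is a plant phenol, studied here as an antioxidant. Since the labels do not state whether the paired libraries are separate cell preparations, p-values measure only the spread between them, and that spread may be technical.

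Serine is made from a glycolytic intermediate in 3 steps, by Phgdh, then the transaminase Psat1 and then the phosphatase Psph. In mitochondria Shmt2 moves a carbon of serine to folate and Mthfd2 oxidises it. Aldh18a1 turns glutamate into the precursor that Pycr1 reduces to proline, Asns makes asparagine from aspartate and glutamine, Gpt2 makes alanine from pyruvate in mitochondria, and Cth makes cysteine. In mammalian cells many of these genes are known targets of ATF4, a transcription factor whose protein is made when amino acids are short or the endoplasmic reticulum or mitochondria are stressed.

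Read totals behind the deposited FPKM values (fragments per kilobase of gene, scaled to the read total) lay between 14.7 and 17.7 megareads per library. Within groups the 2 libraries were distinct beyond counting error, with a chi-square per degree of freedom of 6.74 to 15.7. The labelled cell type was borne out by its markers: the 8 listed cardiomyocyte markers summed to 21169 to 23688 FPKM in the ischemia libraries and 41473 to 44311 FPKM in the normoxia libraries. Markers of other heart cells were present as well. Those of smooth muscle summed to 857 to 1028 FPKM in ischemia and 3136 to 3856 FPKM in normoxia, and those of fibroblasts to 1382 to 1669 FPKM in ischemia and 2750 to 3221 FPKM in normoxia. Endothelial markers summed to 23.1 to 30.3 FPKM in ischemia and 74.3 to 89.0 FPKM in normoxia, and macrophage markers to 15.0 to 20.2 FPKM in ischemia and 42.2 to 50.0 FPKM in normoxia. No marker was listed at 0 in any library. In bulk RNA fewer cells of a type and less RNA per cell cannot be told apart, and the part of cell composition in the results below was not tested.

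The ischemic condition split the enzymes. Asns, Mthfd2, Pycr1 and Gpt2 rose in ischemia both with DMSO and with eugenol, by 1.34 to 2.09 times, whereas Psph fell to 0.421 times its normoxia DMSO level with DMSO and to 0.447 times its normoxia eugenol level with eugenol. Psat1 was lower in ischemia eugenol than in both normoxia groups, and had no entry in ischemia DMSO against normoxia DMSO. Aldh18a1 had 6 to 109 reads per library and was not called in the same direction in the comparisons without and with eugenol. In ischemia DMSO against normoxia DMSO the authors' deposited table listed 6 of the 10 enzymes and all 6 had an adjusted p under 0.05, 4 of them higher and 2 lower. Of all genes the authors adjusted over in that comparison 40.9% were called, 19.7% higher and 21.2% lower. In ischemia eugenol against normoxia eugenol 7 enzymes were called in the authors' deposited table, 5 higher and 2 lower, where 41.1% of all genes were called, 19.6% higher and 21.5% lower. The medians of the listed enzymes in these tables were log2 fold changes of 0.66 with DMSO and 0.60 with eugenol, against medians of -0.27 and -0.27 over all genes listed there.

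**Figure D1:**
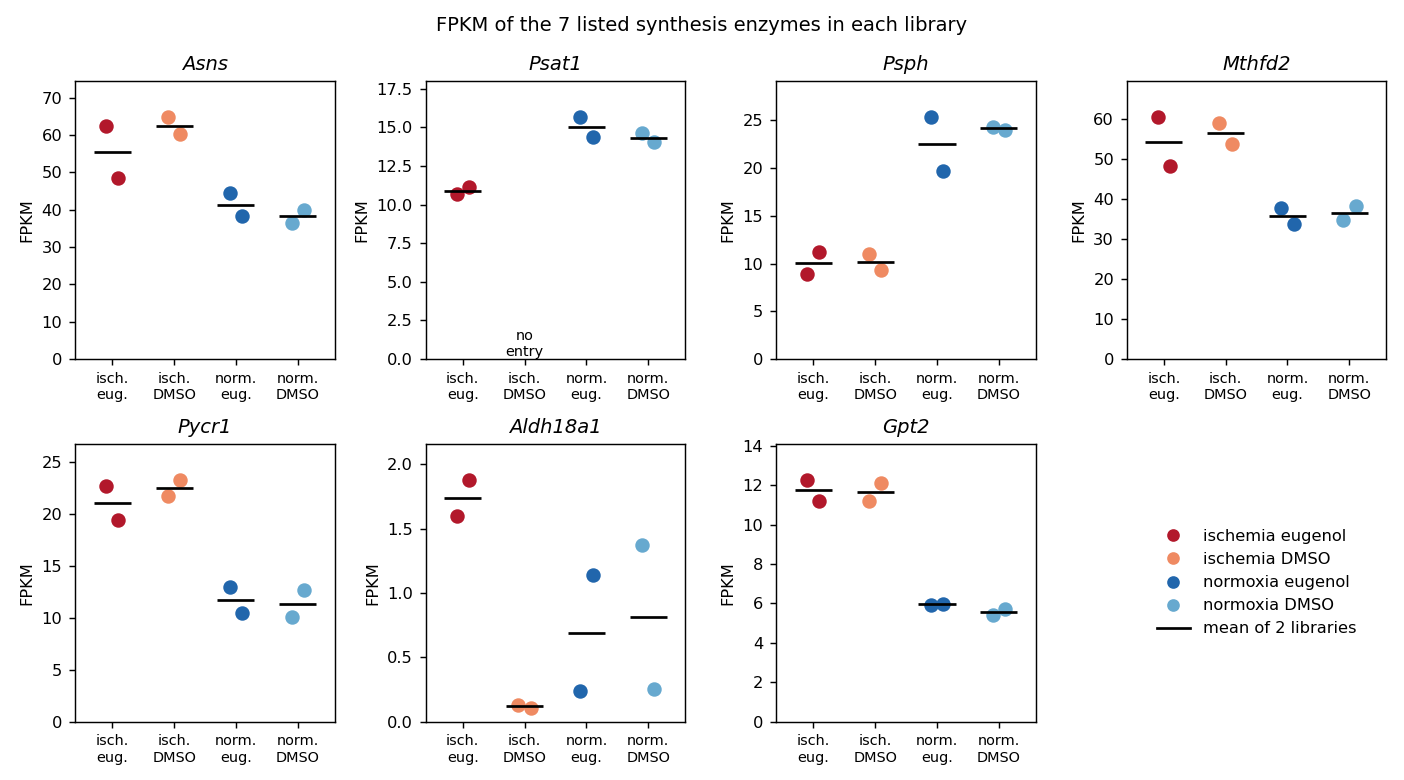
FPKM of the 7 listed synthesis enzymes in each library (points) with the mean of the 2 libraries of a group (line), for ischemia eugenol, ischemia DMSO, normoxia eugenol and normoxia DMSO from left to right. Asns, Mthfd2, Pycr1 and Gpt2 are higher and Psph is lower in all 4 ischemia libraries than in all 4 normoxia libraries, while Aldh18a1 stays under 2 FPKM and its libraries lie far apart in both normoxia groups.

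Psph, the phosphatase of the last step of serine synthesis (ENSRNOG00000000925, deposited at 12:30514050-30526561 on the plus strand, with no build named), was the enzyme with the clearest fall. It had 8.94 and 11.2 FPKM in ischemia eugenol, 11.0 and 9.34 FPKM in ischemia DMSO, 25.3 and 19.7 FPKM in normoxia eugenol, and 24.4 and 24.0 FPKM in normoxia DMSO. The 4 ischemia libraries lay below the 4 normoxia libraries, and the 2 treatments overlapped at each oxygen level. Against normoxia DMSO the log2 fold change of ischemia DMSO in the authors' deposited table was -1.25 (adjusted p = 4.75e-09). An edgeR quasi-likelihood refit over all 6582 genes with counts in the 8 libraries gave -1.25 ± 0.16 (SE). For ischemia eugenol against normoxia eugenol the refit gave -1.16 ± 0.16, with an adjusted p of 6.10e-05. Between 176 and 496 reads stood behind each of these values.

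Psat1, the transaminase of the step before it (ENSRNOG00000013971, deposited at 1:233124092-233145941 on the minus strand), had 10.7 and 11.1 FPKM in ischemia eugenol. It had 15.7 and 14.4 FPKM in normoxia eugenol and 14.6 and 14.1 FPKM in normoxia DMSO. Both ischemia eugenol libraries lay below all 4 normoxia libraries. A fall without eugenol is not shown: ischemia DMSO against normoxia DMSO lists only genes with an unadjusted p under 0.05, and Psat1 was not among them. The authors' deposited tables gave log2 fold changes of -0.47 against normoxia eugenol (adjusted p = 0.00869) and of -0.40 against normoxia DMSO (adjusted p = 0.0406). A refit of the 6 libraries without ischemia DMSO gave -0.46 ± 0.098 (SE) for the comparison with normoxia eugenol. The median over the 6957 genes of that fit, all of them genes listed by the authors, was -0.29. Psat1 was 0.17 below the median of these genes on the log2 scale. With DESeq2 size factors, computed over the same genes, in place of the read totals its log2 fold change was -0.23 and it was no longer called (adjusted p = 0.105).

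Mthfd2, the mitochondrial folate dehydrogenase (ENSRNOG00000010833, deposited at 4:115004448-115015965 on the minus strand), had 60.5 and 48.3 FPKM in ischemia eugenol and 59.0 and 53.9 FPKM in ischemia DMSO. It had 37.8 and 33.9 FPKM in normoxia eugenol, and 34.8 and 38.4 FPKM in normoxia DMSO. All ischemia libraries were above all normoxia libraries. Mthfd2 was 1.54 times higher in ischemia DMSO than in normoxia DMSO and 1.52 times higher in ischemia eugenol than in normoxia eugenol, with refit log2 fold changes of 0.62 ± 0.11 and 0.60 ± 0.11 (SE). The adjusted p-values in the authors' deposited tables were 2.32e-06 and 5.22e-05.

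Asns, asparagine synthetase (ENSRNOG00000007546, deposited at 4:33743364-33761163 on the minus strand), had 62.5 and 48.6 FPKM in ischemia eugenol and 64.7 and 60.3 FPKM in ischemia DMSO. Normoxia eugenol had 44.4 and 38.3 FPKM and normoxia DMSO 36.4 and 40.0 FPKM. The lowest ischemia library, 48.6 FPKM, belonged to ischemia eugenol and lay close to the highest normoxia library, 44.4 FPKM, of normoxia eugenol. Without eugenol Asns rose 1.64 times in ischemia, a log2 fold change of 0.71 ± 0.12 (SE, refit), and the authors' deposited table gave an adjusted p of 1.09e-08. Under eugenol it rose 1.34 times, 0.42 ± 0.12, and the authors' deposited table gave an adjusted p of 0.00725. That second call was lost in the refit without ischemia eugenol library 1 (0.23, adjusted p = 0.172) and without normoxia eugenol library 2 (0.32, adjusted p = 0.129).

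Gpt2, the mitochondrial alanine aminotransferase (ENSRNOG00000059579, deposited at 19:22590881-22632071 on the minus strand), had the smallest spread between libraries relative to its change. Its values were 12.3 and 11.2 FPKM in ischemia eugenol, 11.2 and 12.1 FPKM in ischemia DMSO, 5.93 and 6.00 FPKM in normoxia eugenol, and 5.43 and 5.70 FPKM in normoxia DMSO. Each ischemia library was above every normoxia library. Gpt2 was 2.09 times higher in ischemia DMSO than in normoxia DMSO (log2 1.06 ± 0.11 SE, edgeR refit, adjusted p = 3.71e-06). It was 1.97 times higher in ischemia eugenol than in normoxia eugenol (0.98 ± 0.11, adjusted p = 8.35e-06).

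Pycr1, which makes proline in mitochondria (ENSRNOG00000036682, deposited at 10:109818177-109821807 on the minus strand), had 22.7 and 19.4 FPKM in ischemia eugenol and 21.7 and 23.3 FPKM in ischemia DMSO. It had 13.0 and 10.4 FPKM in normoxia eugenol, and 10.0 and 12.7 FPKM in normoxia DMSO, so that the oxygen levels did not overlap and the treatments did. The rise was 1.98 times with DMSO (log2 0.99 ± 0.15 SE) and 1.80 times with eugenol (0.84 ± 0.15). The authors' deposited tables gave adjusted p-values of 1.06e-05 and 0.000290 for these comparisons.

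Promoter stretches with a match are shown for Pycr1, Asns and Gpt2, which rose. For Mthfd2, which also rose, there was no match to show, and the 1 enzyme without a promoter entry is not named here. ATF4 binds, with its C/EBP partners, a composite element of the letters TGATGNAA, and hypoxia-inducible factors bind the core ACGTG. Both were searched on both strands from 250 bases before to 50 bases after the RefSeq gene start on GRCr8, where 9 of the 10 enzymes had an entry. The composite element was found in 1 of these 9 promoters, that of Pycr1, and in 3.98% of 33469 promoters. The hypoxia core was found in 4 of 9, those of Asns, Gpt2, Shmt2 and Cth, and in 19.3% of all promoters. CACGTG, the E-box, which overlaps the hypoxia core, was found in 1 of 9, that of Cth, and in 6.42% of all. In the stretches below, written 5′ to 3′ on the strand of the gene, the capitals mark the matched letters, which start 131 bases before the gene start in Pycr1, 158 in Asns and 214 in Gpt2. The last 2 carry the core on the other strand and so read CACGT.
Pycr1, chr10:106420906-106420973, minus strand: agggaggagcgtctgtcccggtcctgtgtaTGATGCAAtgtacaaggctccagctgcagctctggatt
Asns, chr4:36769539-36769603, minus strand: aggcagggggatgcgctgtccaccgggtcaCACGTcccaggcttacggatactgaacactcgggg
Gpt2, chr19:37732939-37733003, minus strand: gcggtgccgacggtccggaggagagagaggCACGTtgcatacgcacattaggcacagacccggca

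A match is a description of the letters and not evidence of binding, and no match says only that the letters are not in this window. The composite element also stood in the promoters of Trib3 and Chac1, both known targets of the ATF4 pathway, and their stretches are shown beside that of Pycr1 because, in ischemia DMSO against normoxia DMSO, Trib3 was called higher, like Pycr1, and Chac1 lower. The genes were picked for that difference, so it is a description only. Both carry it on the other strand, starting 21 bases before the gene start in Trib3 and 167 in Chac1.
Trib3, chr3:161275534-161275584, minus strand: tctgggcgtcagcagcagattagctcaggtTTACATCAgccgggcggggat
Chac1, chr3:126795934-126796001, plus strand: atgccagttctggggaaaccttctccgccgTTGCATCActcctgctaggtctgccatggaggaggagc

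Trib3, a pseudokinase that restrains ATF4, had 85.5 and 67.3 FPKM in ischemia DMSO and 20.3 and 20.1 FPKM in normoxia DMSO. Chac1, which degrades glutathione, had 6.86 and 4.24 FPKM in ischemia DMSO and 13.6 and 13.6 FPKM in normoxia DMSO. The authors' deposited table gave log2 fold changes of 1.91 for Trib3 (adjusted p = 2.26e-40) and -1.29 for Chac1 (adjusted p = 4.06e-06). Between the eugenol groups Chac1 was not called in the authors' deposited table (adjusted p = 0.0793).

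Aldh18a1, which makes the proline precursor (ENSRNOG00000015267, deposited at 1:259057402-259089642 on the minus strand), was the enzyme with the fewest reads and the largest spread. Ischemia eugenol had 1.60 and 1.88 FPKM, from 89 and 109 reads, and ischemia DMSO had 0.130 and 0.108 FPKM, from 8 and 6 reads. Normoxia eugenol had 0.242 and 1.14 FPKM, from 13 and 58 reads, and normoxia DMSO had 1.37 and 0.250 FPKM, from 79 and 14 reads. Within each normoxia group 1 library was 4.70 or 5.48 times the other, and all 4 normoxia libraries lay between those of ischemia DMSO and those of ischemia eugenol. In the authors' deposited tables Aldh18a1 was lower in ischemia DMSO than in normoxia DMSO (log2 fold change -2.78, adjusted p = 0.00370). The same tables gave it as higher in ischemia eugenol than in normoxia eugenol (1.34, adjusted p = 0.0372) and than in ischemia DMSO (3.87, adjusted p = 2.90e-08). The edgeR refit gave -2.75 ± 0.84 (adjusted p = 0.0180), 1.34 ± 0.63 (adjusted p = 0.131) and 3.84 ± 0.80 (SE, adjusted p = 0.423). The first of these was lost without normoxia DMSO library 1 (-1.05, adjusted p = 0.654), without either ischemia DMSO library (adjusted p = 0.0902 and 0.102) and with DESeq2's Wald test (adjusted p = 0.0653). The second was called without normoxia eugenol library 2 (2.84, adjusted p = 0.0118), without either normoxia DMSO library (adjusted p = 0.0308 and 0.0285) and in a fit of its 2 groups alone (adjusted p = 0.0428). The third was called in a fit of the 2 ischemia groups alone (adjusted p = 7.17e-05) and without normoxia DMSO library 2 (adjusted p = 0.0484). No other gene listed in the tables overlapped Aldh18a1 by its deposited position. The nearest listed gene on chromosome 1, Pdlim1 at 251 kb between starts, had 2026 and 2219 reads in the normoxia DMSO libraries and did not show the split of Aldh18a1 there.

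The choice of scaling shifted all refit values in the oxygen comparisons. The refit holds only genes listed by the authors, and 6470 of its 6582 genes were called in ischemia DMSO against normoxia DMSO. TMM and DESeq2 factors were computed over these genes alone, so they and the medians below do not stand for all genes. Over the 6582 refitted genes the median log2 fold change between ischemia DMSO and normoxia DMSO was -0.31 with the read totals, -0.23 with TMM factors and -0.08 with DESeq2 size factors. Relative to that median the refit values were 1.02 for Asns, 0.94 for Mthfd2, 1.296 for Pycr1, 1.37 for Gpt2, -0.94 for Psph and -2.44 for Aldh18a1. None of these 6 changed its direction or its call under the other 2 scalings.

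Levels per kilobase ordered the enzymes in a similar way in all groups at the top and bottom. Asns and Mthfd2 were the most abundant, at 62.5 ± 3.12 and 56.5 ± 3.58 FPKM in ischemia DMSO against 38.2 ± 2.58 and 36.6 ± 2.54 FPKM in normoxia DMSO (mean ± SD, n = 2 libraries). Their libraries overlapped in ischemia eugenol and normoxia DMSO, and not in the other groups. Aldh18a1 was the lowest in every group. Between these ends Pycr1 ranked 3 in both ischemia groups with 21.0 ± 2.36 FPKM in ischemia eugenol and 22.5 ± 1.10 FPKM in ischemia DMSO. Psph ranked 3 in both normoxia groups, with 22.5 ± 3.98 FPKM in normoxia eugenol and 24.2 ± 0.290 FPKM in normoxia DMSO. Neighbours in the order that overlapped were Asns and Mthfd2 in those 2 groups and Psat1 and Psph in ischemia eugenol.

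Ischemia eugenol was also set against normoxia DMSO in a deposited table, which shares its libraries with the comparisons above. In it 39.3% of all genes were called, 18.5% higher and 20.8% lower, and 6 enzymes were listed and called, with Asns, Mthfd2, Pycr1 and Gpt2 higher and Psat1 and Psph lower. The log2 fold changes in the authors' deposited table were 0.53 for Asns, 0.56 for Mthfd2, 0.88 for Pycr1, 1.07 for Gpt2 and -1.27 for Psph. Psat1 lay 0.11 below the median gene of the 6-library refit here on the log2 scale, and with DESeq2 size factors its value was -0.18 and it was not called (adjusted p = 0.237). Aldh18a1 had no entry there, and its edgeR refit value was 1.09 ± 0.61 (SE, adjusted p = 0.242), which without normoxia DMSO library 1 became 2.79 (adjusted p = 0.00533).

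**Figure D2:**
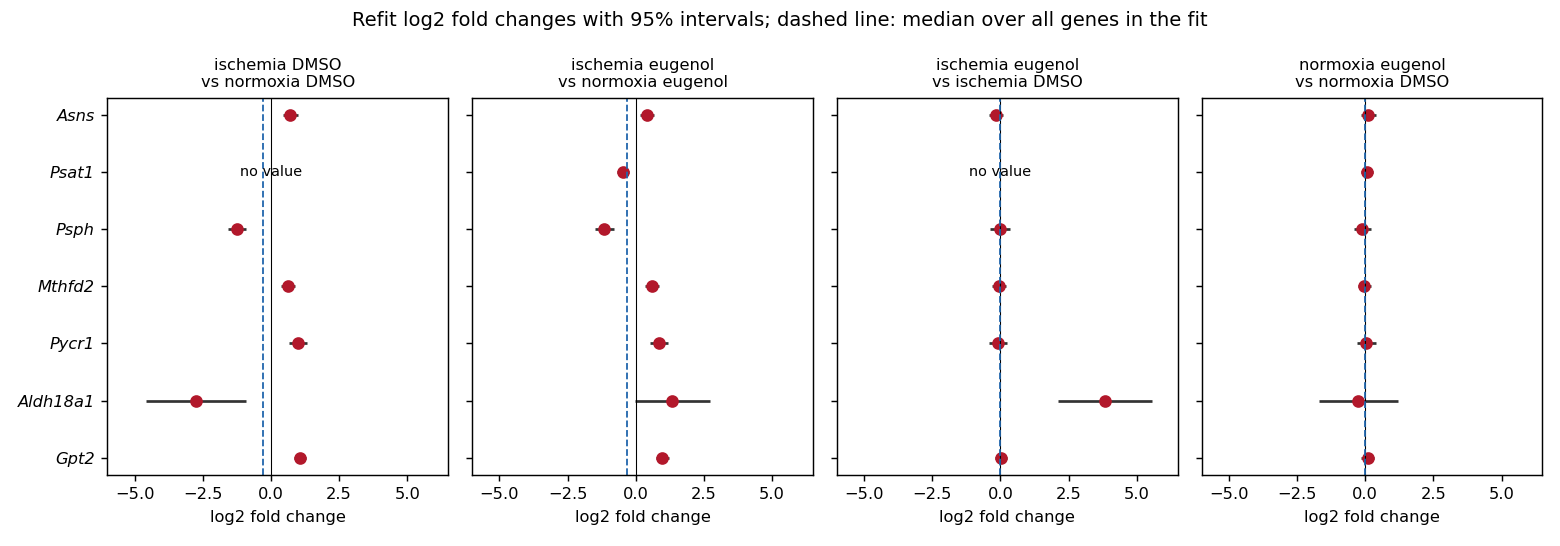
Refit log2 fold changes of the enzymes with 95% intervals (points and bars) in 4 comparisons, with the median over all genes of the fit as a dashed line. In the oxygen comparisons on the left Asns, Mthfd2, Pycr1 and Gpt2 lie to the right of 0 and Psph to the left, and in the eugenol comparisons on the right all but Aldh18a1 lie between -0.17 and 0.12.

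Eugenol was compared with DMSO at each oxygen level to ask whether it changed the enzymes. None of the 6 enzymes with counts in all libraries was called in the edgeR refit at either oxygen level. Of its 6582 genes 1 (0.0152%) was called in ischemia and 3 (0.0456%) in normoxia. A gene listed in a eugenol comparison alone had no counts in the other groups and was not in the refit. These shares thus leave out such genes and do not stand for all genes. At an unadjusted p under 0.05 the refit held 242 genes in ischemia and 274 in normoxia, and of the enzymes Aldh18a1 in ischemia was among them. The authors' deposited table for ischemia called Aldh18a1 and listed no other enzyme, with 0.121% of all genes called there, and their table for normoxia listed none of the enzymes, with 0.181% of all genes called.

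In ischemia the eugenol effect on Asns was -0.17 on the log2 scale, with a 95% interval of -0.43 to 0.09. The intervals were -0.30 to 0.19 for Mthfd2, -0.41 to 0.22 for Pycr1, -0.20 to 0.23 for Gpt2 and -0.38 to 0.35 for Psph. In normoxia they were -0.15 to 0.38 for Asns, -0.28 to 0.22 for Mthfd2, -0.30 to 0.39 for Pycr1, -0.14 to 0.34 for Gpt2 and -0.43 to 0.23 for Psph. Psat1 in normoxia had 0.07, with an interval of -0.15 to 0.28 in the fit of 6 libraries. These intervals leave room for changes of either sign smaller than the oxygen effects on Pycr1, Gpt2 and Psph, and they do not show that eugenol left the enzymes unchanged. For Aldh18a1 the intervals were 2.11 to 5.57 in ischemia and -1.69 to 1.19 in normoxia.

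Whether the ischemia effect differed with eugenol was tested as the interaction in the same edgeR refit. In it 1 of 6582 genes (0.0152%) was called and 236 had an unadjusted p under 0.05. Genes entered this refit only if listed in comparisons that together hold all 4 groups, for most of them both oxygen comparisons within a treatment. Genes with an ischemia effect listed in only 1 of these were thus largely left out. The share called therefore does not stand for all genes. None of the 6 enzymes was called. Asns had -0.29 ± 0.17 (SE), with a 95% interval of -0.66 to 0.08, and Mthfd2, Pycr1, Gpt2 and Psph lay between -0.14 and 0.09. The smaller rise of Asns with eugenol than with DMSO did not pass this test of the difference. Aldh18a1 had 4.09 ± 1.06 with an adjusted p of 0.703.

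Profiles over the 8 libraries placed Asns closest to Mthfd2 among the enzymes. The Euclidean distance between their centred log2(RPM + 0.5) profiles, with RPM the reads scaled to megareads of the library, was 0.20, against 0.54 between Asns and Pycr1 and 0.71 between Asns and Gpt2. Pycr1 and Gpt2 lay 0.35 apart, and Psph was 2.52 from Asns. Over the 5863 genes that averaged 5 RPM or more and had counts in every library, the nearest to Asns outside the enzymes were Gars at 0.17, Dlg1 at 0.17, Eif2b4 at 0.19, 1700021K19Rik at 0.19 and Nup62 at 0.19. Gars, the glycyl-tRNA synthetase, had 126.7 and 101.8 FPKM in ischemia eugenol, 125.5 and 121.2 FPKM in ischemia DMSO, 80.4 and 76.6 FPKM in normoxia eugenol, and 75.2 and 80.5 FPKM in normoxia DMSO. These points share libraries and depth, and the distances are descriptions without a test.

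The genes around the serine and folate enzymes were called about as often as all genes, counted over all symbols of the list. Here and for the lists below, some symbols may not be among the genes the authors adjusted over. The shares of the lists are thus lower bounds beside that of all genes. Of 21 symbols on that list 10 were listed in ischemia DMSO against normoxia DMSO in the authors' deposited table, 5 called higher and 4 lower, where 40.9% of all genes were called. Their median log2 fold change in that table was 0.55 against -0.27 over all genes listed. Mthfd1l, which releases formate from mitochondrial folate in the step after Mthfd2, had 33.2 and 31.8 FPKM in ischemia DMSO and 8.55 and 9.56 FPKM in normoxia DMSO. Shmt1, the cytosolic counterpart of Shmt2, had 16.5 and 15.1 FPKM in ischemia DMSO and 6.53 and 6.20 FPKM in normoxia DMSO. Both rose, as did Sfxn1, the mitochondrial serine carrier, with 34.5 and 30.8 FPKM in ischemia DMSO and 16.8 and 15.0 FPKM in normoxia DMSO. The log2 fold changes in the authors' deposited table were 1.84 for Mthfd1l, 1.31 for Shmt1 and 1.04 for Sfxn1. Mtr, methionine synthase, rose by 0.93 on the log2 scale in the authors' deposited table, and Slc25a32, the mitochondrial folate carrier, singled out after its values were seen, by 0.79.

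Among the 4 lower genes of that list were Aldh1l2, Tyms and Mat2a, named after their values were seen. Aldh1l2, which oxidises mitochondrial formyl-folate and so competes with Mthfd1l for it, had 5.52 and 6.55 FPKM in ischemia DMSO and 11.3 and 14.5 FPKM in normoxia DMSO. Its log2 fold change in the authors' deposited table was -1.10 (adjusted p = 1.98e-07). Tyms, which makes thymidylate for DNA synthesis, had -0.53 there, and Mat2a, which makes S-adenosylmethionine, had -0.70. With eugenol in both groups 5 genes of the list were called higher and 3 lower in the authors' deposited table, and Mthfd1l had 1.69 and Aldh1l2 -1.29.

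**Figure D3:**
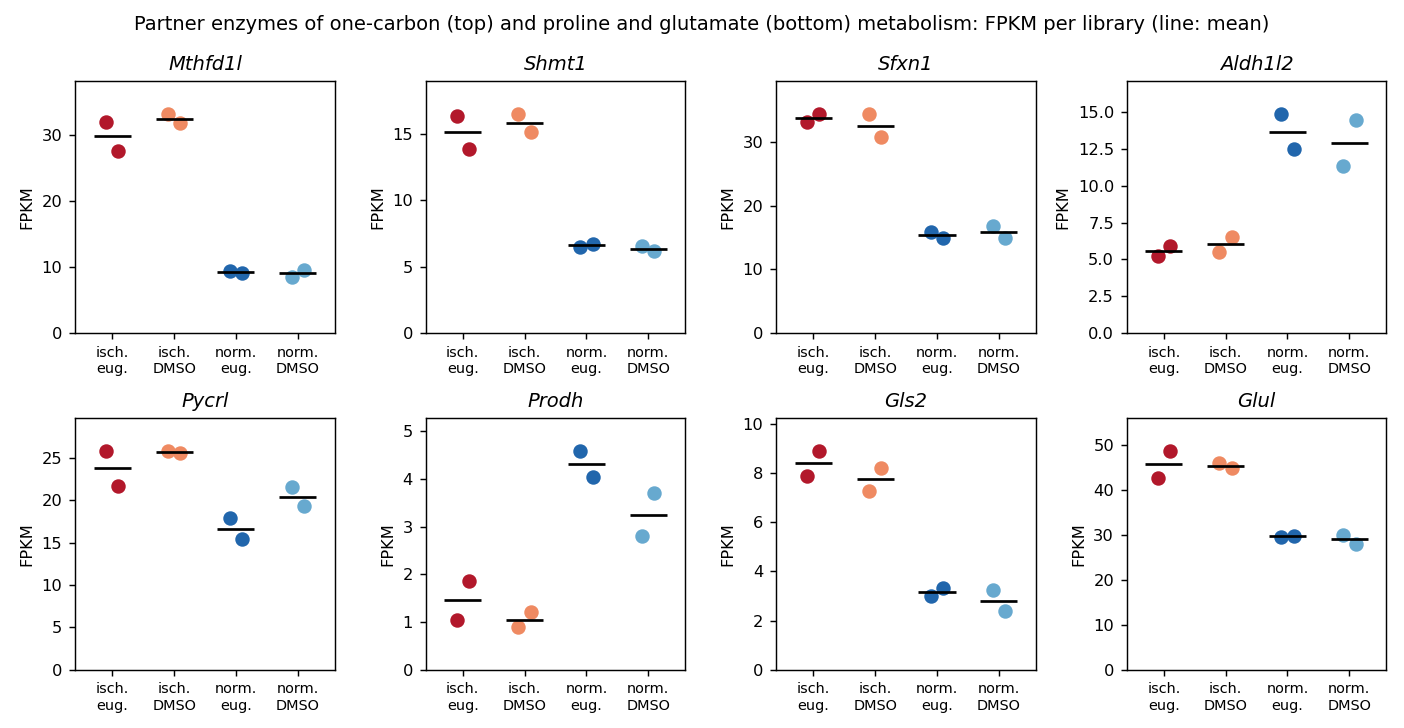
FPKM per library (points) and group mean (line) of 4 enzymes and carriers beside serine and folate (top row) and 4 beside proline and glutamate (bottom row), in ischemia eugenol, ischemia DMSO, normoxia eugenol and normoxia DMSO from left to right. Mthfd1l, Shmt1, Sfxn1, Gls2 and Glul are higher and Aldh1l2 and Prodh are lower in all 4 ischemia libraries than in all 4 normoxia libraries.

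Around proline and glutamate 5 of 11 symbols were listed in ischemia DMSO against normoxia DMSO in the authors' deposited table. Of these 2 were called higher and 1 lower, where 40.9% of all genes were called. Prodh, the mitochondrial enzyme that breaks proline down, had 0.892 and 1.21 FPKM in ischemia DMSO and 2.79 and 3.70 FPKM in normoxia DMSO. Its log2 fold change in the authors' deposited table was -1.63 (adjusted p = 0.000180), opposite in sign to that of Pycr1. Gls2, a glutaminase, had 7.28 and 8.21 FPKM in ischemia DMSO and 3.25 and 2.38 FPKM in normoxia DMSO, and Glul, glutamine synthetase, had 45.8 and 44.7 FPKM in ischemia DMSO and 30.01 and 27.9 FPKM in normoxia DMSO. Both the enzyme that splits glutamine and the one that makes it were called higher, with 1.46 and 0.64 in the authors' deposited table. Pycrl, a cytosolic reductase that also makes proline, singled out after its values were seen, was not called there, with a log2 fold change of 0.33 in the authors' deposited table (adjusted p = 0.100). With DESeq2 size factors its refit value was 0.56 and it was called (adjusted p = 0.00223). In the authors' deposited table with eugenol in both groups it was called at 0.51 (adjusted p = 0.0139).

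Around aspartate, asparagine and alanine 6 of 12 symbols were listed in ischemia DMSO against normoxia DMSO in the authors' deposited table. Of these 2 were called higher and 2 lower, where 40.9% of all genes were called. Aspg, an asparaginase and so the reverse of Asns, had 1.13 and 1.33 FPKM in ischemia DMSO and 0.115 and 0.165 FPKM in normoxia DMSO. Ass1, argininosuccinate synthase, which uses aspartate, had 8.43 and 7.82 FPKM in ischemia DMSO and 2.20 and 3.89 FPKM in normoxia DMSO. The authors' deposited table gave log2 fold changes of 3.14 and 1.41 for this pair. Slc25a13, the mitochondrial carrier that exports aspartate, had 27.1 and 26.7 FPKM in ischemia DMSO and 60.3 and 54.0 FPKM in normoxia DMSO, and Bcat2, the mitochondrial branched-chain aminotransferase, had 16.9 and 17.7 FPKM in ischemia DMSO and 30.5 and 31.1 FPKM in normoxia DMSO. These fell by 1.09 and 0.84 on the log2 scale in the authors' deposited table. Between the eugenol groups 7 symbols were listed in the authors' deposited table, and again 2 were called higher and 2 lower. Gpt, the cytosolic counterpart of Gpt2, singled out after its values were seen, was listed at 0.80 and not called (adjusted p = 0.0786).

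On the list of cysteine and glutathione genes, to which Cth leads, 4 of 9 symbols were listed in ischemia DMSO against normoxia DMSO. Gclm and Gclc, the subunits of glutamate-cysteine ligase, and Ggct, which recycles glutamyl peptides, were called higher and Chac1 lower in the authors' deposited table, again near the 40.9% of all genes. Gclm had 105.1 and 93.1 FPKM in ischemia DMSO and 26.5 and 25.4 FPKM in normoxia DMSO, with a log2 fold change of 1.93 in the authors' deposited table. With eugenol in both groups 4 genes were called higher and Chac1, with 7.33 and 11.6 FPKM in ischemia eugenol and 13.6 and 13.3 FPKM in normoxia eugenol, was not called (adjusted p = 0.0793).

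Amino acid carriers had 8 of 16 symbols listed in ischemia DMSO against normoxia DMSO, 4 called higher and 4 lower in the authors' deposited table, near the 19.7% higher and 21.2% lower of all genes. Their median log2 fold change there was 0.11 against -0.27 over all genes listed. Slc3a2, the heavy chain that large neutral amino acid and cystine carriers share, had 353.5 and 321.6 FPKM in ischemia DMSO and 85.9 and 89.9 FPKM in normoxia DMSO, and rose by 1.94 in the authors' deposited table. Slc1a4 and Slc6a9, carriers of neutral amino acids and of glycine, rose by 0.92 and 0.88 in the authors' deposited table. Slc1a5, a glutamine carrier, had 9.56 and 8.14 FPKM in ischemia DMSO and 15.8 and 19.2 FPKM in normoxia DMSO, and its log2 fold change in the authors' deposited table was -0.99. Between the eugenol groups 6 carriers were called higher and 3 lower of 10 listed in the authors' deposited table.

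ATF4 and its partners were higher in ischemia together with the cytosolic tRNA synthetases. Of 22 symbols of the ATF4 list 16 were listed in ischemia DMSO against normoxia DMSO, 15 called higher and 1 lower. Their median log2 fold change was 1.32 in the authors' deposited table, where 19.7% of all genes were called higher. Known targets counted on other lists are not among these, such as Chac1, which was called lower, and many of the enzymes themselves. Atf4 had 573.1 and 542.0 FPKM in ischemia DMSO and 192.1 and 205.5 FPKM in normoxia DMSO. Ddit3, the stress transcription factor CHOP, had 187.8 and 190.6 FPKM in ischemia DMSO and 47.0 and 41.5 FPKM in normoxia DMSO. Gdf15, a secreted stress cytokine, and Myc, a growth-promoting transcription factor, rose by 2.55 and 2.43 in the authors' deposited table. The 1 lower gene, named for that reason after its values were seen, was Eif2ak4, the kinase GCN2 that senses missing amino acids, at -0.45 (adjusted p = 0.0383) in the authors' deposited table. With DESeq2 size factors its refit value was -0.22 and it was not called (adjusted p = 0.239). Between the eugenol groups 15 genes of the ATF4 list were called higher and 2 lower of 18 listed in the authors' deposited table.

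All 16 listed synthetases of 20 symbols were called higher in ischemia DMSO against normoxia DMSO in the authors' deposited table, with a median log2 fold change of 0.69. Of all genes 19.7% were called higher there. Sars, the seryl-tRNA synthetase, which charges the product of Psph, had 213.9 and 199.9 FPKM in ischemia DMSO and 90.1 and 93.8 FPKM in normoxia DMSO. Eprs, which charges glutamate and proline, had 148.9 and 154.1 FPKM in ischemia DMSO and 67.4 and 74.4 FPKM in normoxia DMSO. Their log2 fold changes in the authors' deposited table were 1.17 and 1.09, and Aars and Vars, for alanine and valine, had 1.08 and 1.09. Of the 16 synthetases listed between the eugenol groups 15 were called higher and none lower in the authors' deposited table, with a median of 0.54.

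**Figure D4:**
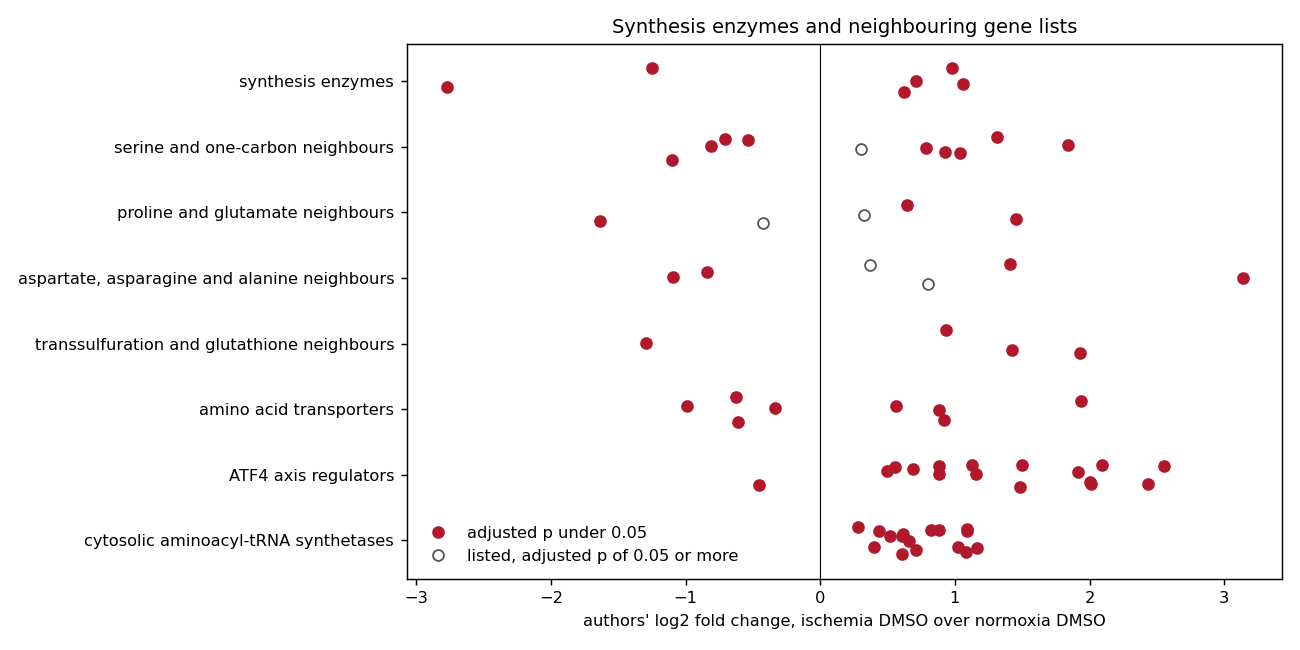
Log2 fold changes of ischemia DMSO over normoxia DMSO in the authors' deposited table for the synthesis enzymes and 7 neighbouring gene lists (1 row each, 1 point per listed gene, filled where the adjusted p was under 0.05). The ATF4 regulators and the tRNA synthetases lie almost wholly to the right of 0, while the enzymes and the lists around serine, proline, asparagine and the carriers have points on both sides.

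Among the cell markers of this comparison 1 of 8 listed cardiomyocyte markers was called higher and 7 lower in the authors' deposited table. Of all genes 19.7% were called higher and 21.2% lower there. The counts were 1 higher and 5 lower of 8 for fibroblasts, 1 and 5 of 6 for smooth muscle, 0 and 5 of 5 for the endothelium, and 0 and 4 of 6 for macrophages. The lists held 10 cardiomyocyte, 10 fibroblast, 7 smooth muscle, 8 endothelial and 8 macrophage symbols. Only genes with an unadjusted p under 0.05 were listed, so most listed genes were called. With DESeq2 size factors 2 of the cardiomyocyte and 2 of the fibroblast calls were lost in the refit. The median log2 fold changes in the authors' deposited table were -0.74 for the cardiomyocyte, -0.38 for the fibroblast, -1.27 for the smooth muscle, -1.27 for the endothelial and -1.08 for the macrophage markers. Actc1, cardiac actin, had 5099 and 4875 FPKM in ischemia DMSO and 13011 and 13781 FPKM in normoxia DMSO. Acta2, smooth muscle actin, had 222.4 and 195.2 FPKM in ischemia DMSO and 2037 and 2469 FPKM in normoxia DMSO. Psph and Aldh18a1 fell in the direction of most of these markers in this comparison. With eugenol in both groups, where each marker sum was also lower in ischemia, the edgeR refit gave -1.16 for Psph and 1.34 for Aldh18a1. Whether cell composition takes part in these values was not tested.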

How the data were processed

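RNA from 8 libraries, 2 in each of 4 groups, was sequenced, and the authors deposited 5 tables that list only genes with an unadjusted p under 0.05. Per the file headers each table holds read counts per gene and library, counts scaled by library (normalized signal), FPKM, and the authors' log2 fold change, p-value and adjusted p-value. Per the submitters' processing notes HISAT2, StringTie 1.3.3b, edgeR and DESeq2 were used, with no roles given, and the genome build and annotation are not given in the sources used here. Table columns were tied to samples by group code and by the number in the column name, read as the number in the sample's title.

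Counts given in more than 1 table (27772 values) were the same in each. Counts were refitted with edgeR 4.0.16 (quasi-likelihood, 4 group means, offsets from the read totals behind the FPKM values) over 6582 genes with counts in all 8 libraries. A gene was called at an adjusted p under 0.05: the authors' value in the oxygen comparisons, and the refit, with Benjamini-Hochberg adjustment over its genes, for eugenol and the interaction, since the deposited tables leave genes out. Refit p-values of the oxygen comparisons were adjusted over the number of genes the authors adjusted over, which their deposited p-values give. Psat1 was fitted over 6 libraries and 6957 genes. With 2 libraries a group the smallest p of an exact two-sided permutation test is 0.333, so none is given for single genes. Intervals of the refit are 95% intervals from its SE.

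The refit was tested on simulated counts with known fold changes before use. Of 6582 genes, 67 were changed 1.5-fold, 67 2-fold and 66 4-fold, and 76.1%, 98.5% and 100% of them were recovered, with 8 false calls. In the data most fitted genes were called in the oxygen comparisons, a setting that the simulation did not copy. Alternatives were TMM factors, DESeq2 1.42.0 size factors and its Wald test, fits of 2 groups, a minimum mean of 5 RPM, an adjusted p under 0.01, a minimum fold of 2, a replicate block and leaving out each library. The TMM and DESeq2 factors came from the fitted genes alone, not from all genes.

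Named genes are the 10 enzymes, up to 4 genes of each of 12 lists with the smallest deposited adjusted p in ischemia DMSO against normoxia DMSO, Atf4, Ddit3, Trib3 and Chac1, and the 5 profiles nearest to Asns. The enzymes, lists and motifs were chosen with earlier results of these data known. A few genes of the lists are not reported here.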

Additional observations from a re-analysis of the deposited data

Results flagged for a closer look

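Aldh18a1 was called in opposite directions in ischemia without and with eugenol in the authors' deposited tables. In the edgeR refit the rise with eugenol was not called (1.34 ± 0.63 SE, adjusted p = 0.131). Aldh18a1 was lower in both ischemia DMSO libraries, with 8 and 6 reads, than in both normoxia DMSO libraries, with 79 and 14 reads. It was higher in both ischemia eugenol libraries, with 89 and 109 reads, than in both normoxia eugenol libraries, with 13 and 58 reads. The difference between these effects was 4.09 ± 1.06 on the log2 scale (SE, edgeR refit, unadjusted p = 0.00211), and it did not pass the adjustment over 6582 genes (adjusted p = 0.703). Leaving out single libraries gave 2.40 to 5.58, and it was called without normoxia DMSO library 2 (4.84, adjusted p = 0.0401). The libraries of each normoxia group lay 4.70 or 5.48 times apart, and what sets them apart was not tested.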

How the results depend on the processing

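Psph, Mthfd2, Pycr1 and Gpt2 in both oxygen comparisons within a treatment, and Asns in that with DMSO, kept their direction under every alternative that was run for them, and their call under all but the minimum fold of 2. That threshold ended the calls of Asns, Mthfd2 and Pycr1 with DMSO and of Mthfd2, Pycr1 and Gpt2 with eugenol. Of all 6582 fitted genes the edgeR refit called 6470 with DMSO and 6449 with eugenol in both groups. Being called in that refit was thus shared by nearly all fitted genes. Leaving out single libraries gave 5 to 6 enzymes called with DMSO, 4 to 6 with eugenol in both groups, 0 to 1 for eugenol in ischemia and 0 to 1 for the interaction. The lowest of these, 4, came without ischemia eugenol library 1. Each 1 came without normoxia DMSO library 2. With a fold of at least 2 added to the threshold 3 enzymes were called with DMSO, 2 with eugenol and 2 in ischemia eugenol against normoxia DMSO. Aldh18a1 was the 1 enzyme called for eugenol in ischemia by the authors' adjusted p, and 1 was called in a fit of the 2 groups alone.

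All 25 changes of direction were in values that were not called. For eugenol in ischemia Gpt2 was -0.0088 with DESeq2 size factors and -0.0087 with its Wald test. Leaving out single libraries there gave -0.19 to 0.14 for Psph, -0.23 to 0.10 for Mthfd2, -0.21 to 0.015 for Pycr1 and -0.053 to 0.076 for Gpt2. For eugenol in normoxia it gave -0.29 to 0.068 for Psph, -0.11 to 0.045 for Mthfd2, -0.12 to 0.22 for Pycr1 and -1.74 to 1.44 for Aldh18a1. For the interaction it gave -0.087 to 0.28 for Psph, -0.20 to 0.13 for Mthfd2 and -0.32 to 0.025 for Pycr1. Aldh18a1, with few reads, dropped out at a minimum mean of 5 RPM.

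With a fold of at least 2 the lists given here called fewer genes. With DMSO these were 4 around serine, 1 carrier, 10 of the ATF4 list, 5 synthetases, 2 cardiomyocyte, 3 fibroblast and 3 smooth muscle markers. With eugenol in both groups they were 5 around serine, 2 around proline, 2 around cysteine, 2 carriers, 9 of the ATF4 list, 1 synthetase, 2 cardiomyocyte and 5 fibroblast markers. At an adjusted p under 0.01 the proline list had 3 with eugenol. Lists that lost a smaller share of their calls, or none, are left out of these counts. With DMSO and the fold of at least 2 they include those around proline, aspartate and cysteine, which kept 2, 3 and 3 calls.

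A replicate block on the column numbers called 6 enzymes with DMSO, 5 with eugenol in both groups and 0 for eugenol and the interaction. It changed no call of an enzyme in the refit. Of all 6582 fitted genes it called 6463 with DMSO and 6423 with eugenol in both groups. The labels do not say that a number marks a shared batch or day, and the data did not show the numbers to pair libraries: the correlation of their differences over 5863 genes was -0.235 to 0.120. With the normoxia eugenol numbers crossed, chosen after seeing the data, 6478 genes and 6 enzymes were called in ischemia eugenol against normoxia eugenol, and 3 genes and 0 enzymes for eugenol in normoxia. The cause of these changes was not tested.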
